A study of Mus musculus with 6 samples.

Results

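Mitotic cells were picked out of the 6 libraries of this experiment by their RNA, chosen by the measured UMIs of marker genes. A cell counted as mitotic when the UMIs (unique molecular identifiers, each standing for 1 captured RNA molecule) of 8 genes of the G2 and M phases summed to at least 3. The 8 genes were Mki67, Top2a, Cenpf, Cenpe, Aspm, Tpx2, Kif20b and Ccnb1. A cell entered if it had 200 genes or more, no more than 2000 UMIs and mitochondrial genes at 30% of its UMIs or less. The rule was met by 11387 of 60671 cells (18.8%), which together held 8366573 UMIs and 60.2% of all UMIs of the 8 genes. The rule reads RNA of genes that rise from S phase into mitosis, so it does not separate cells in division from cells that are preparing for it.

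RNA of single cells was measured by sci-RNA-seq3, in which cells or nuclei are labeled by rounds of combinatorial barcodes. The labels give the molecule as nuclear RNA of paraformaldehyde-fixed material. The wild-type mice (WT) were C57BL/6 Bcl11b YFP/YFP, and the mutant mice (ΔTE) were Bcl11b YFPΔEnh/YFPΔEnh, which lack the distal timing enhancer of Bcl11b. Both genotypes thus carried the YFP reporter at Bcl11b. Bone marrow progenitors enriched for CD117, from male and female mice 2 to 4 months of age, were pooled over mice and grown on OP9-DL1, a mouse stromal line that presents a Notch ligand. Sorted from these cultures were DN1 cells, which are CD44+CD25-, and CD44+CD25+ cells without (DN2a) or with (DN2b) the Bcl11b reporter, and each was grown for another 4 days on OP9-DL1. The methods name Flt3-L and IL-7 for all T-cell cultures, and IL-7, IL-2, SCF and IL-15 for the NK and ILC experiments, among which they count this one. Each genotype and start gave 1 library, so no difference between libraries has a replicate behind it. The libraries held 8007395 to 14555100 UMIs over all barcodes, and no barcode was shared between the libraries. The barcodes divide a library into 3 wells of reverse transcription, and the wells of 1 culture are not replicates.

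A dividing cell copies its DNA in S phase, passes G2, and then separates its chromosomes in mitosis and its cytoplasm in cytokinesis. The genes of these steps are transcribed in waves, with E2F-driven replication genes first and a G2/M wave driven by B-Myb, FoxM1 and the MuvB complex later. Early T-cell progenitors divide many times in the DN1 and DN2 stages before commitment, and Bcl11b, a zinc-finger factor of T-cell commitment, is first switched on in this window.

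Because the rule counts UMIs, deep cells met it more often. The median mitotic cell held 651 UMIs and 459 genes, and the median cell outside the rule 405 UMIs and 301 genes. In WT DN1 the share of cells that met the rule went from 4.04% of cells under 400 UMIs to 57.5% of cells with 1200 to 2000 UMIs, and the other 5 libraries had the same order of depth bands. As sequenced, the share was 15.6% in WT DN1 (1704 of 10925 cells), 18.9% in WT DN2a (3693 of 19489) and 24.7% in WT DN2b (1228 of 4968). It was 18.1% in ΔTE DN1 (1866 of 10294 cells), 18.6% in ΔTE DN2a (2159 of 11594) and 21.7% in ΔTE DN2b (737 of 3401).

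To set a like depth, each cell was thinned to 300 UMIs and cells under that depth were left out, 462 to 4723 cells per library. The loss was uneven, with 4723 of 19489 cells left out in WT DN2a and 1471 of 11594 in ΔTE DN2a. The share of mitotic cells was then lowest in the DN1 cultures and higher in the DN2 cultures. In WT it was 4.12% for DN1 (95% Clopper-Pearson interval 3.73 to 4.54), 9.35% for DN2a (8.89 to 9.83) and 9.88% for DN2b (9.01 to 10.8). In ΔTE it was 4.48% for DN1 (4.07 to 4.92), 6.28% for DN2a (5.82 to 6.77) and 8.20% for DN2b (7.23 to 9.25). These intervals, and those of all ratios here, cover counting error only. WT DN2a exceeded WT DN1 by 1.18 on the log2 scale (1.02 to 1.35) and differed from WT DN2b by less than the counting error (0.08, -0.08 to 0.24). In ΔTE the step from DN1 to DN2a was 0.49 (0.31 to 0.67) and the step from DN2a to DN2b 0.38 (0.16 to 0.60).

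Between the genotypes, the DN2a cultures stood farthest apart. The log2 ratio of the thinned share, ΔTE to WT, was -0.57 (-0.71 to -0.44) for DN2a and -0.27 (-0.50 to -0.04) for DN2b, and 0.12 (-0.08 to 0.32) for DN1. In the wells of the DN2a start, the thinned share was 9.06, 9.32 and 9.65% in WT and 7.29, 5.42 and 5.55% in ΔTE, so the wells of the genotypes did not overlap. For DN1 the WT wells were at 4.56, 4.10 and 3.84% and the ΔTE wells at 4.21, 4.88 and 4.38%. For DN2b the WT wells were at 8.14, 9.80 and 10.7% and the ΔTE wells at 7.49, 8.57 and 8.65%. The wells of the genotypes overlapped at both of these starts. ΔTE DN2a had the widest spread as sequenced, with wells at 23.7, 11.8 and 19.2%, and with the first of the 3 wells left out of both DN2a libraries the thinned ratio was -0.79.

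The DN2a difference depended on how depth was set. Without thinning its log2 ratio was -0.03 (-0.10 to 0.05), and it was -0.26 (-0.39 to -0.12) among cells with 500 to under 800 UMIs left unthinned. By depth band of unthinned cells, ΔTE DN2a was at 6.25% against 10.1% in WT DN2a under 400 UMIs. With 800 to 1199 UMIs it was at 44.3 against 48.3%. In cells with 1200 to 2000 UMIs the direction turned, at 61.6% (57.2 to 66.0) against 52.7% (47.8 to 57.6). The intervals of both of these deeper bands overlapped. WT DN2a also had the lowest mitochondrial share, with a median of 13.5% of UMIs in its mitotic cells against 22.5 to 24.9% in the other 5 libraries. With each cell thinned to 250 UMIs outside mitochondrial genes, a setting chosen after seeing the data, the ratio was -0.32 (-0.46 to -0.19). A limit of 20% mitochondrial UMIs gave -0.83 (-1.04 to -0.62). For DN2b the same limit turned the direction (0.09, -0.38 to 0.55), and the cells with 500 to under 800 UMIs gave -0.01 (-0.24 to 0.21). Thinned to 500 UMIs or to 250 UMIs outside mitochondrial genes, DN2b was at -0.089 (-0.30 to 0.12) and -0.069 (-0.29 to 0.15), intervals that include 0. Thinned to 200 UMIs it was at -0.25 (-0.58 to 0.08), and without the third well at -0.19 (-0.50 to 0.11). With 1 library per condition, genotype and library cannot be told apart.

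**Figure D1:**
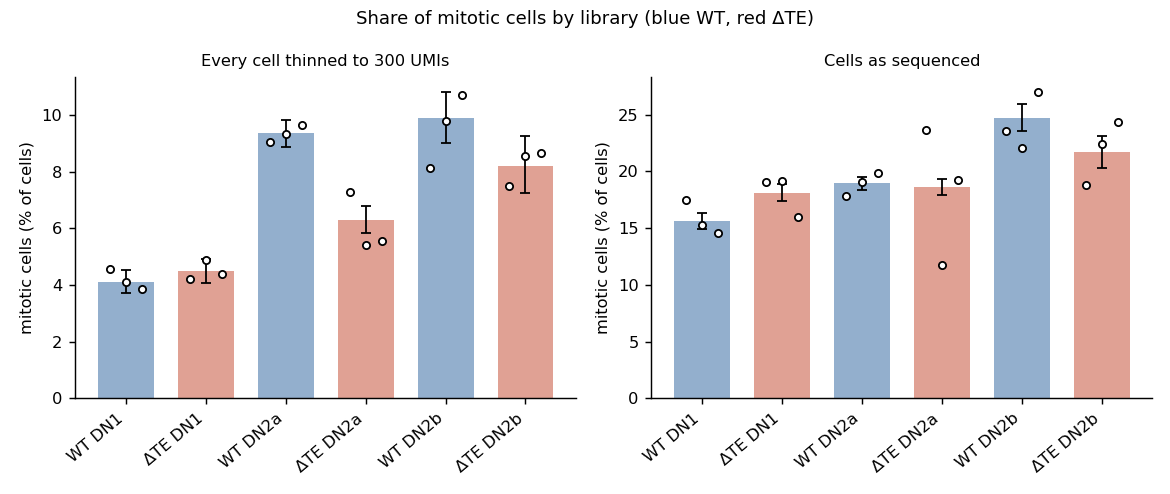
Share of cells that met the rule (percent, vertical axis) in each library, as sequenced and after thinning to 300 UMIs, with 95% Clopper-Pearson intervals and the 3 wells as points. At like depth the DN1 cultures sit at 4.12 and 4.48%, and ΔTE DN2a sits at 6.28% against 9.35% in WT DN2a.

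The 8 genes of the rule did not carry equal weight. Top2a, the topoisomerase that untangles sister chromatids, gave 33.8% of their UMIs in mitotic cells, and Mki67, which coats mitotic chromosomes, gave 25.4%. The kinetochore motor Cenpe gave 10.2%, the spindle assembly factor Tpx2 9.16%, the kinetochore protein Cenpf 8.19% and the cytokinesis kinesin Kif20b 5.87%. Aspm, a spindle pole protein, gave 4.37% and Ccnb1, the cyclin B1 partner of CDK1, 2.98%. These are shares of UMIs, not of transcripts per length. A UMI of Top2a was seen in 76.8% of mitotic cells, one of Mki67 in 65.3% and one of Ccnb1 in 10.9%. The make-up was alike in all libraries, with Top2a at 32.0 to 34.9% and Mki67 at 24.0 to 27.4% of the UMIs.

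Most mitotic cells met the rule through more than 1 of the genes. The UMIs came from 1 gene in 628 cells (5.52%), from 2 genes in 3787 (33.3%), from 3 genes in 4548 (39.9%) and from 7 genes in 20, and no cell had all 8. Just inside the threshold lay 5010 cells with a sum of 3, and just outside lay 8721 cells with a sum of 2. In cells with a sum of 0, the other G2/M genes summed to 6757 CPM (counts scaled to a common library total). Their level was 9808 CPM at a sum of 1, 11273 at 2, 11924 at 3, 12490 at 4 and 13339 at 5 or more. The step at the threshold was thus small beside the step from 0 to 1. The S phase genes were at 8987 CPM at a sum of 0, 9481 at 1 and 7747 at 5 or more. Cells were not matched for depth in these levels.

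**Figure D2:**
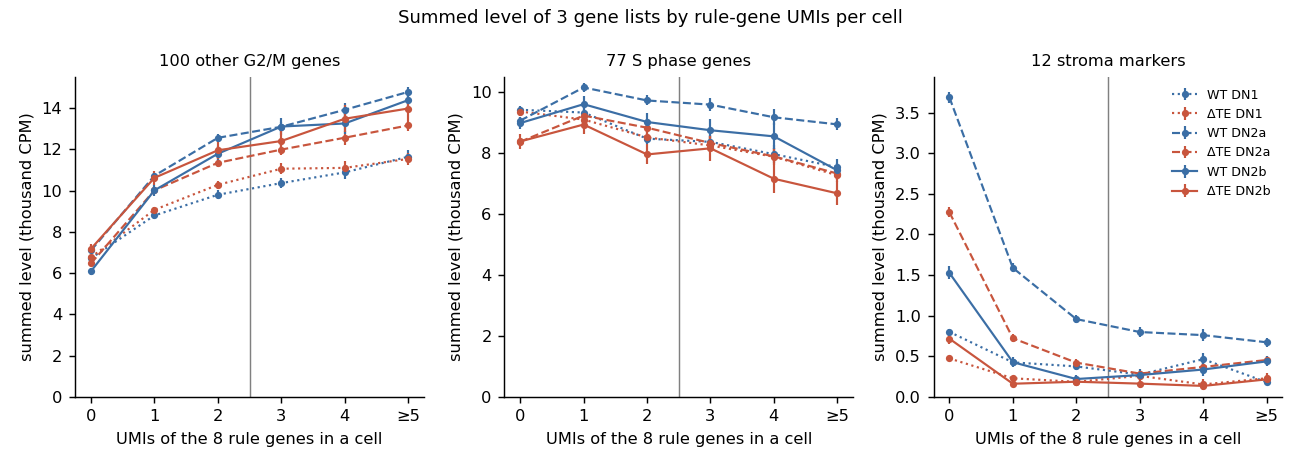
Summed level of gene lists (CPM, vertical axis) against the number of UMIs of the 8 rule genes in a cell (horizontal axis), over all filtered cells. The other G2/M genes go from 6757 CPM at 0 UMIs to 13339 CPM at 5 or more, with 11273 just below and 11924 just above the threshold.

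Genes outside the rule were compared between mitotic cells and as many other cells of the same library, well and depth. A partner was found for 10516 of 11387 mitotic cells (92.4%). Summed UMIs were tested with the quasi-likelihood test of edgeR with the library as a block, and Benjamini-Hochberg adjusted p below 0.05 counted as changed. Of 10381 genes tested, 532 were higher (5.12%) and 842 lower (8.11%) in mitotic cells. The comparison cells held more stromal cells. Cells with at least 2 UMIs of 12 stroma markers (collagens and matrix genes of the feeder line) made up 3.35 to 18.3% of them and 0.756 to 3.41% of the mitotic cells. Without such cells on either side, 288 of 9807 genes were higher (2.94%) and 186 lower (1.9%), and where a gene named here lost its call in that setting, its value is given. The block was needed for many of the calls, since without it 133 genes were higher and 232 lower.

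The other G2/M genes, a list of 101 with none of the 8, were higher as a body. Of the 100 tested, 85 rose, 1 fell and 14 did not pass the test. Their median log2 fold change was 0.70, against 0.01 over all genes tested. A higher level in all 6 libraries was seen for 79 of them. Without stroma-marker cells, 81 rose and 1 fell, with a median of 0.59. The list was chosen with earlier results of these data known.

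Among the cyclins, CDK1 and their regulators, 8 of 8 rose. Cdc25b, the phosphatase that activates CDK1, stood at 30, 55.5 and 68.7 CPM in mitotic cells of WT DN1, DN2a and DN2b, and at 13.3, 23.5 and 21.9 CPM in the matched cells. In ΔTE it was at 42.2, 64.7 and 75.0 CPM against 23.5, 31.3 and 37.6. Mitotic cells were higher in each library, with a log2 fold change of 1.15 ± 0.14 (SE, adjusted p = 1.53e-08). Cdk1, the kinase that drives entry into mitosis, rose by 0.92 ± 0.08 and Ccnb2, a B-type cyclin, by 0.88 ± 0.09.

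Of the mitotic kinases and checkpoint genes, 11 of 12 rose. Plk1, the polo-like kinase of spindle assembly, was at 77.5, 112 and 126 CPM in mitotic cells of WT DN1, DN2a and DN2b, with 50.9, 53.7 and 52.7 CPM in matched cells. In ΔTE it was at 88.3, 136 and 135 CPM, with 42.2, 45.6 and 80.2 CPM in matched cells. Its log2 fold change was 1.10 ± 0.10 (adjusted p = 6.89e-11). Aurka, the kinase of spindle poles, rose by 1.00 ± 0.11. Wee1, which holds CDK1 inactive, did not pass the test (0.17 ± 0.09, adjusted p = 0.288). In the group of the anaphase-promoting complex and separase, 5 of 6 rose. They included Ube2c (1.03 ± 0.08), which adds ubiquitin for the complex, and its activator Cdc20 (1.00 ± 0.12). Securin, Pttg1, was at 0.30 ± 0.33 (adjusted p = 0.677), with 4.97 to 12.5 CPM in mitotic cells.

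The spindle genes held the highest value of the list. Of 25 kinesin and spindle genes tested, 21 rose. Prc1, which bundles the microtubules of the central spindle, was at 164, 237 and 237 CPM in mitotic cells of WT DN1, DN2a and DN2b against 80.1, 106 and 70.2 CPM in matched cells. In ΔTE it was at 216, 210 and 242 CPM against 113, 88.3 and 110 CPM. The lowest mitotic value lay above the highest matched value, and the log2 fold change was 1.18 ± 0.08 (adjusted p = 2.09e-15). Nusap1, a microtubule bundler, rose by 1.13 ± 0.08 and Hmmr, a spindle-associated hyaluronan receptor, by 1.12 ± 0.08. Of the kinetochore and centromere genes 14 of 18 rose, led by the centromeric histone Cenpa (0.94 ± 0.09).

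All 3 genes of the chromosomal passenger complex rose, Cdca8 by 0.89 ± 0.09, Incenp by 0.81 ± 0.09 and Birc5 by 0.70 ± 0.09. All 9 cytokinesis genes rose, among them Racgap1 (0.85 ± 0.10), which acts at the spindle midzone, and Anln (0.80 ± 0.07), a scaffold of the contractile ring. Of the condensins and chromosome structure genes 13 of 16 rose, led by the variant histone H2ax at 0.96 ± 0.07. The condensin subunit Smc4 rose by 0.51 ± 0.05. Of the 3 transcription factor genes of the G2/M wave, Foxm1 rose (0.54 ± 0.16, adjusted p = 0.0141), Mybl2, which encodes B-Myb, fell (-0.40 ± 0.14, adjusted p = 0.0445) and Lin54 did not pass (0.15 ± 0.08, adjusted p = 0.325).

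**Figure D3:**
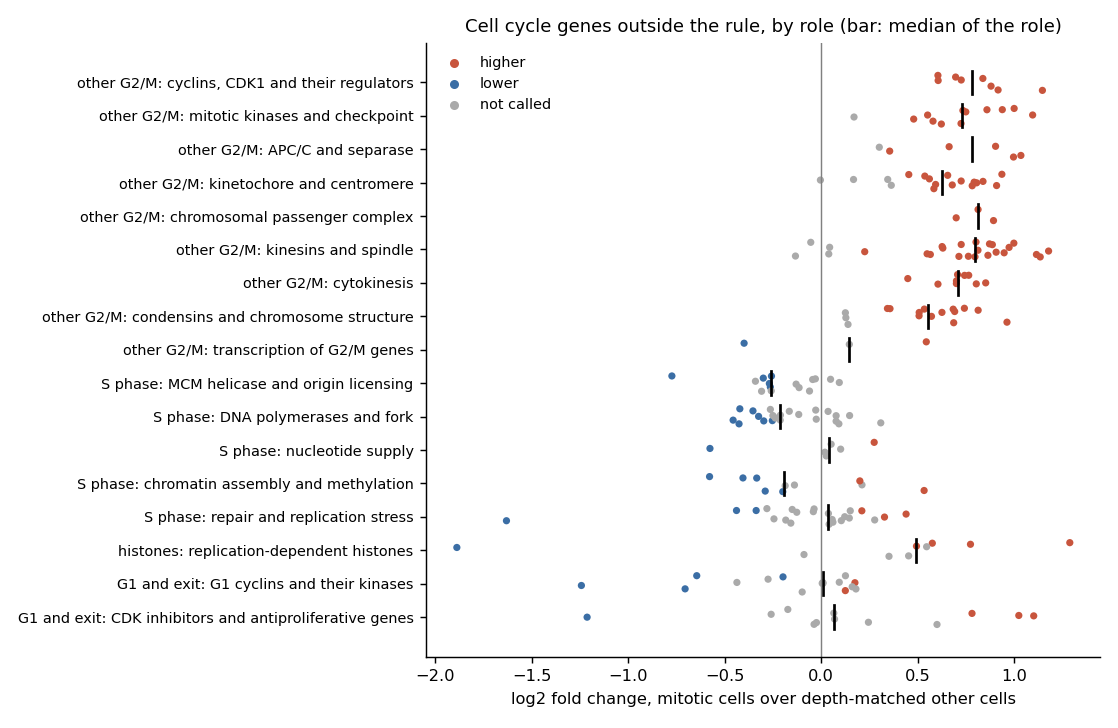
Log2 fold change of each tested cell-cycle gene in mitotic cells over depth-matched other cells (horizontal axis), by role, colored by the call of the edgeR test, with the median of each role as a bar. G2/M roles other than transcription have medians of 0.55 to 0.81, whereas the S phase roles have medians of -0.26 to 0.04.

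The promoters of the 6 G2/M genes with the highest fold change, and of the 2 S phase genes with the lowest, were searched for the elements by which the G2/M wave is known. They are RefSeq sequences on GRCm38.p6, which is not the build of the deposited counts, and run from 120 bases before to 30 bases from the start on the strand of the gene. Capitals mark the cell cycle genes homology region (CHR, TTTGAA) and the CCAAT box (CCAAT), each on either strand.
Prc1 (chr7:80294331-80294480, plus strand): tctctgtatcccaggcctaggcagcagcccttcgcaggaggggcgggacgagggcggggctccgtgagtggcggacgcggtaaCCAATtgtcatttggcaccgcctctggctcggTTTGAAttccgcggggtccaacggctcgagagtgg
Cdc25b (chr2:131186828-131186977, plus strand): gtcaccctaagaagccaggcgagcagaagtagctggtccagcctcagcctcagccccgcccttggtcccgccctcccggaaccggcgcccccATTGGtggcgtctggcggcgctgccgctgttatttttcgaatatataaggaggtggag
Nusap1 (chr2:119618178-119618327, plus strand): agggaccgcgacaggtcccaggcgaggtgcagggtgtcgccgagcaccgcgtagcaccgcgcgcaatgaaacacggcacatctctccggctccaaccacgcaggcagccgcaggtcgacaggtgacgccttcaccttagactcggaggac
Hmmr (chr11:40733408-40733557, minus strand): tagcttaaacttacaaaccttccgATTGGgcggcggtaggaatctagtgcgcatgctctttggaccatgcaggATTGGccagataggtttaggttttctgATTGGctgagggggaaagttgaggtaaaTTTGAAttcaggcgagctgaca
Plk1 (chr7:122159315-122159464, plus strand): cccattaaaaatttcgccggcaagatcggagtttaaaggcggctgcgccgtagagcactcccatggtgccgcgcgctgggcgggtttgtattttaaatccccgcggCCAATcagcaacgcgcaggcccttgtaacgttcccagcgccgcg
Ube2c (chr2:164769809-164769958, plus strand): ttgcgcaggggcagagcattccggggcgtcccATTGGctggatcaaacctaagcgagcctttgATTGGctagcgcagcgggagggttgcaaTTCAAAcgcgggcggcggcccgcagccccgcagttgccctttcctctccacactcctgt
Ung (chr5:114130315-114130464, plus strand): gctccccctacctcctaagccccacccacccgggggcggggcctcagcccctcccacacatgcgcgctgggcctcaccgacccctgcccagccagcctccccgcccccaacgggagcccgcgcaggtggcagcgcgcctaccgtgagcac
Cdc6 (chr11:98908031-98908180, plus strand): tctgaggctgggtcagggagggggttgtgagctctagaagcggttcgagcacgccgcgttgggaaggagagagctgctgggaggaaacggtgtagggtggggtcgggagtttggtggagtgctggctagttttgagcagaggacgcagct

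In these windows a CHR began 5 bases before the start of Prc1, 29 before that of Ube2c and 9 past that of Hmmr, and CCAAT boxes lay before all 3 starts, of which Hmmr had 3. Cdc25b and Plk1 had a CCAAT box and no CHR, although in the wider window Plk1 had a CHR that began 31 bases past its start. Neither word was in the printed windows of Nusap1, Ung and Cdc6. In the wider window Cdc6 had an E2F site that began 138 bases before its start. In windows of 300 bases (250 before and 50 after the start), 84 of the 101 other G2/M genes matched the table with 96 promoters, and 62 of 77 S phase genes with 70 promoters. A CHR was in 59 of the 96 G2/M promoters (61.5%), in 10 of the 70 S phase promoters (14.3%) and in 17.9% of the 32851 promoters of the table. A CCAAT box was in 67.7% of the G2/M, 58.6% of the S phase and 37.4% of all promoters. An E2F site (TTTCCCGC, TTTGGCGC, TTTCGCGC or TTTGCCGC, either strand) was in 8.33% of the G2/M, 32.9% of the S phase and 2.26% of all promoters. Both CHR and CCAAT box were in 46.9, 11.4 and 6.95% of them. These are matches of letters and no test was made.

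S phase genes were mostly near the level of the matched cells. Of 77 genes tested, 6 were higher, 21 lower and 50 did not pass, with a median log2 fold change of -0.13. Without stroma-marker cells 3 were higher and 33 lower (median -0.23), whereas without the mitochondrial limit 22 were higher and 8 lower, so the direction of this list depends on the cells that enter. Without that limit, 20.3 to 30.6% of the matched cells had stroma markers. Origin licensing and MCM helicase genes gave no gene higher and 5 of 15 lower. DNA polymerase and fork genes gave 7 of 23 lower and none higher. Chromatin assembly genes gave 2 higher and 5 lower of 10, and repair genes 3 higher and 3 lower of 23.

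Ung, the uracil DNA glycosylase that removes uracil from DNA, had the lowest fold change of the list. It was at 8.33, 9.40 and 11.7 CPM in mitotic cells of WT DN1, DN2a and DN2b against 35.9, 31.5 and 41.0 CPM in matched cells. In ΔTE it was at 15.6, 9.95 and 2.5 CPM against 27.4, 28.5 and 35.1 CPM. Every mitotic value lay below every matched value, and the log2 fold change was -1.63 ± 0.21 (adjusted p = 5.35e-08), or -1.62 without stroma-marker cells. Cdc6, which loads the MCM helicase, fell by 0.77 on the log2 scale (SE 0.16, adjusted p = 0.000265) and was lower in each library. Chaf1b, a subunit of the chromatin assembly factor, fell by 0.58 (SE 0.14). The genes that rose included Asf1b, a histone chaperone (0.53 ± 0.12), Diaph3, a formin of the actin cytoskeleton placed on this list (0.44 ± 0.06), and Rrm1, a ribonucleotide reductase subunit (0.27 ± 0.06). Pcna, the sliding clamp, did not pass the test (0.15 ± 0.08, adjusted p = 0.294).

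Among 28 tested genes of G1 and cell-cycle exit, 5 were higher and 5 lower. Without stroma-marker cells 2 were higher and 2 lower. The CDK inhibitor Cdkn2d rose by 1.02 ± 0.20 (adjusted p = 0.000164, 0.92 without stroma-marker cells). Its levels were 19.2, 29.6 and 36.5 CPM in mitotic cells of WT DN1, DN2a and DN2b and 21.1, 23.5 and 35 CPM in those of ΔTE. The matched cells were at 7.52 to 16.5 CPM, below all 6 mitotic values. Ccng2, an atypical cyclin tied to arrest, rose by 0.78 ± 0.19. E2f1, an activator of the replication wave, fell by 0.65 (SE 0.12, adjusted p = 6.19e-05), and Ccne2, the cyclin E2 of S phase entry, by 0.71 (SE 0.18). These 4 genes passed in both settings. Ccnd1 was at -1.24 ± 0.19 with stroma-marker cells and at -0.06 without them. Of the 9 histone genes that could be tested among 26, 4 rose, among them H2ac8 (0.77 ± 0.14), and H2bc4 fell (-1.89 ± 0.46) at 1.42 to 2.5 CPM in mitotic cells, too few UMIs to be tested without stroma-marker cells. Capture of histone RNA, most of which lacks a poly(A) tail, is low in such libraries.

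Outside all lists, the genes with the highest fold changes were Cdkn3 (1.31 ± 0.21), a phosphatase that acts on CDKs, Pif1 (1.23 ± 0.11), a DNA helicase, and Depdc1b (1.22 ± 0.12). Arhgef39 and Sapcd2 followed at 1.21, Rtkn2 at 1.16, Prr11 at 1.13, Fam83d at 1.11, Troap at 1.10, Depdc1a at 1.09 and Pimreg at 1.03. Kpna2, an importin, Ccnf, cyclin F, and Parpbp stood at 1.00. All 14 were higher in 6 of 6 libraries and passed with and without stroma-marker cells. Cx3cr1, a chemokine receptor of myeloid and lymphoid cells, was at 0.99 ± 0.27 and did not pass without stroma-marker cells (0.60, adjusted p = 0.181). These genes were not equally even between libraries. For Arhgef39 the log2 ratio ran from 0.50 in WT DN1 to 2.53 in ΔTE DN2b. Pif1 was more even, from 1.02 in ΔTE DN1 to 1.68 in ΔTE DN2b. It was at 107, 98.3 and 84.8 CPM in mitotic cells of WT DN1, DN2a and DN2b and at 92.2, 116 and 107 CPM in ΔTE, against 32.6 to 48.4 CPM in all matched cells.

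The genes with the lowest fold changes were Pxdn (-3.42 ± 0.52), Rab34 (-3.27 ± 0.57), Pros1 (-3.07 ± 0.52), Copz2, Rtl8b, Thsd7a, Flrt2, Fkbp10, Amotl2 and Mmp23 (-2.85 ± 0.32). Pxdn was at 0 CPM in both kinds of cell of ΔTE DN2b and Rab34 was level in ΔTE DN1, so these 2 were lower in 5 of 6 libraries. The 10 genes were at 0 to 6.11 CPM in mitotic cells, and in some libraries at 0, so these fitted values depend on the prior count. None of the 10 reached the minimum of 60 UMIs once stroma-marker cells were left out. Without those cells, genes among the lowest were Ung (-1.62), Necab3 (-1.10), E2f1 (-0.87), Cmtm4 (-0.87), Cdc6 (-0.86) and Dscc1 (-0.86), of which Necab3 did not pass with them (-0.64, adjusted p = 0.32).

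Markers of blood lineages were compared the same way, to see which cells met the rule. Over all genes tested, 5.12% were higher and 8.11% lower. T-lineage markers gave 6 higher and none lower of 13 tested. Cd3g, a chain of the CD3 complex, was at 89.1, 347 and 555 CPM in mitotic cells of WT DN1, DN2a and DN2b against 58.4, 249 and 454 CPM in matched cells. In ΔTE it was at 31.3, 138 and 442 CPM against 18.0, 104 and 368 CPM. Mitotic cells were higher in all 6 libraries by a log2 fold change of 0.42 ± 0.07 (adjusted p = 5.3e-06), and by 0.21 without stroma-marker cells (adjusted p = 0.0266). Themis, a T-cell signaling adaptor, rose by 0.45 ± 0.12 and Cd247, the CD3 zeta chain, by 0.38 ± 0.08. Bcl11b was at 0.24 ± 0.05 (adjusted p = 0.00155) and did not pass without stroma-marker cells (0.11, adjusted p = 0.216). Without them 4 of the T-lineage markers passed, all higher.

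Of 15 ILC and NK markers, 5 rose and 1 fell. Il18r1, the IL-18 receptor, rose by 0.98 ± 0.23, from 2.93 to 27.6 CPM in matched cells to 9.16 to 65.0 CPM in mitotic cells. Gata3, a factor of T cells and type 2 ILCs, rose by 0.37 ± 0.08 and Id2, an inhibitor of E proteins needed by ILCs, by 0.42 ± 0.12. Zbtb16, which encodes PLZF of ILC precursors, fell by 0.23 (SE 0.06, adjusted p = 0.00585), and by 0.33 without stroma-marker cells. It was lower in 5 of 6 libraries. In WT DN1, DN2a and DN2b it was at 238, 236 and 153 CPM in mitotic cells against 296, 217 and 240 CPM in matched cells, and in ΔTE at 346, 435 and 357 CPM against 396, 532 and 499 CPM. Without the mitochondrial limit the value turned (0.14, adjusted p = 0.0238).

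Progenitor markers gave 2 higher of 12 and none lower, Cd34 (0.45 ± 0.11), a marker of stem and progenitor cells, and the ETS factor Erg (0.25 ± 0.06). Erg did not pass without stroma-marker cells (0.11, adjusted p = 0.285). Myeloid markers gave 1 lower of 13, the granule enzyme Mpo (-0.51 ± 0.12). That count is near the share of all tested genes that were lower (8.11%). The 12 stroma markers were all lower, with a median of -2.32, which restates how the comparison cells were made up. Ebf1, a factor of B cells that stromal cells also express, was at -2.22 ± 0.13, and at -0.17 (adjusted p = 0.886) once stroma-marker cells were left out. The other B-lineage gene and the 3 erythroid, mast and megakaryocyte genes tested did not pass.

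**Figure D4:**
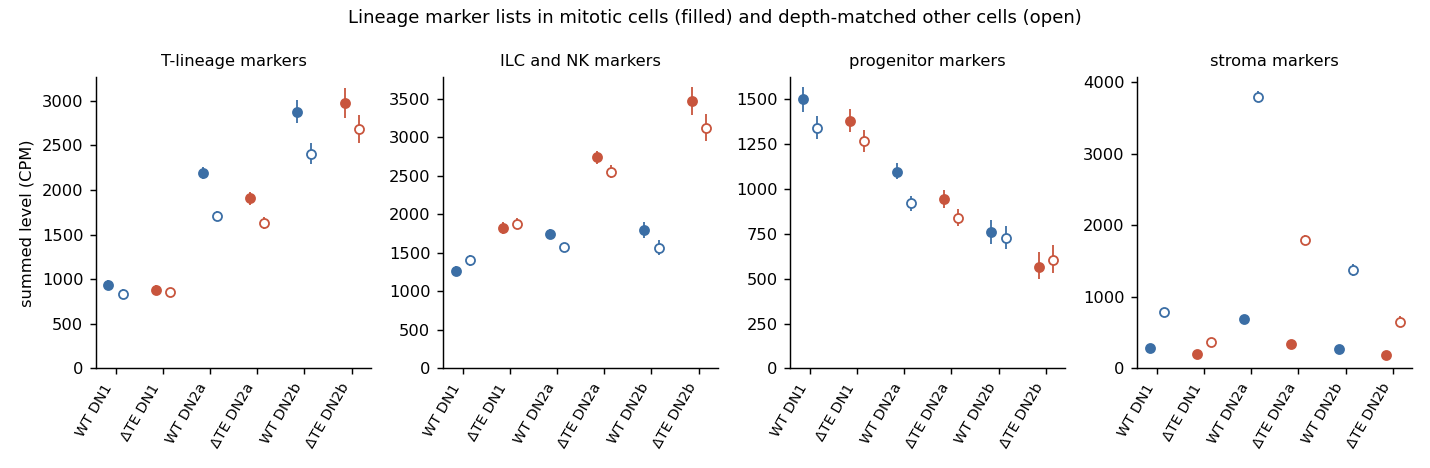
Summed level of marker lists (CPM) in mitotic cells and in depth-matched other cells of each library. Stroma markers are at 185 to 689 CPM in mitotic cells and 375 to 3804 CPM in matched cells. T-lineage markers are higher in mitotic cells in all 6 libraries, though in ΔTE DN1 within the counting error (880 against 854 CPM). Stroma-marker cells were kept on both sides.

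The share of mitotic cells among cells that carried markers was also read at like depth. After thinning, 8.77% of cells with at least 2 UMIs of T-lineage markers met the rule (8.05 to 9.54), against 6.30% of cells with none. For ILC and NK markers the shares were 7.57% and 6.85%, and for progenitor markers 6.35% and 6.96%. They were 4.09% and 7.01% for myeloid markers. Cells with at least 2 UMIs of stroma markers had 1.38% (36 of 2604 cells, 0.970 to 1.91), against 7.22% without such UMIs. Cells with at least 2 UMIs of B-lineage markers had 1.48% (2 of 135 cells, 0.180 to 5.25). These pools mix libraries in unequal parts. Within libraries, cells with stroma markers were below cells without them in all 6. In WT DN1 (2.40%, 0.79 to 5.52, against 4.46%) and ΔTE DN2b (2.38%, 0.06 to 12.6, against 8.77%) this was within their interval. T-lineage-marker cells lay above cells with none in all 6, but beyond their interval only in WT DN2a (10.9 against 8.82%) and WT DN2b (12.3 against 8.92%). In WT DN1 they were at 5.31 against 4.46%. In ΔTE DN1, DN2a and DN2b they were at 5.02 against 4.61, 5.73 against 5.51 and 8.42 against 8.24%. ILC and NK-marker cells lay below cells with none in WT DN1 (4.53 against 4.66%) and above them elsewhere, each time within their interval. Progenitor-marker cells lay above cells with none in WT DN2a (10.2 against 9.09%) and WT DN2b (14.2 against 10.2%) and below them in the other 4 libraries, in each case within the interval of the marker-bearing cells. Myeloid-marker cells were at 4.92 against 4.36% in WT DN1 and 3.01 against 4.65% in ΔTE DN1, with at most 30 such cells in each other library. Whether the level in stroma-marker cells stems from free RNA was not tested.

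Within mitotic cells, some of the genes that the study follows differed between the genotypes. The ratios of Bcl11b, Zbtb16, Fcer1g, Gzma, Gata3 and Id2 had the same sign in cells outside the rule, so they are not particular to mitotic cells. With 1 library per condition no test was made, and a log2 ratio of ΔTE to WT past 1.5-fold counted as a difference. In all 3 starts, 4 of 24 lineage genes with enough UMIs differed in 1 direction, Gzma, Themis and Fcer1g higher and Bcl11b lower. Of 5324 genes with enough UMIs, 12 were higher (0.225%) and 13 lower (0.244%) in all 3 starts. Zbtb16 fell just short of 1.5-fold for DN1. Of all genes at a single start, 3.17% were higher and 2.33% lower for DN1, 1.67% and 7.9% for DN2a, and 4.85% and 6.78% for DN2b. The lineage genes were chosen for such patterns in these data, so the count is a description. Without the mitochondrial limit the genes past 1.5-fold in all 3 starts were Bcl11b, Fcer1g and Zbtb16, and no longer Gzma and Themis.

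Bcl11b was at 94.8 CPM in mitotic cells of ΔTE DN1 against 262 in WT DN1 (log2 ratio -1.47, -1.75 to -1.19). The values were 261 against 581 CPM for DN2a (-1.15, -1.31 to -0.99) and 555 against 857 CPM for DN2b (-0.63, -0.83 to -0.43). The Bcl11b wells of the genotypes did not overlap at any start. Wells of a library share its culture, and the share of all genes with wells apart in this way was not computed. In cells outside the rule the ratios were -1.37, -1.03 and -0.68. Zbtb16 was higher in ΔTE, with 361 against 241 CPM for DN1, 439 against 243 for DN2a and 364 against 153 for DN2b. Its ratios were 0.58 (0.38 to 0.78), 0.85 (0.69 to 1.01) and 1.25 (0.92 to 1.57), next to 0.56, 1.07 and 0.99 outside the rule. The DN2b wells ranged from 174 to 515 CPM in ΔTE and from 143 to 177 in WT, so they overlapped.

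Fcer1g, the common gamma chain of Fc and NK receptors, was at 222 against 138 CPM for DN1, 266 against 108 for DN2a and 182 against 43.9 for DN2b (0.68, 1.30 and 2.05). No well of ΔTE overlapped a well of WT of the same start, with the same limit as for Bcl11b. Outside the rule the Fcer1g ratios were 0.82, 1.23 and 2.20. Themis was at 37.1 against 20.5 CPM for DN1, 122 against 60.2 for DN2a and 145 against 81.4 for DN2b (0.86, 1.03 and 0.84). Its DN2b wells overlapped, at 70.8 to 188 CPM in ΔTE and 73.3 to 84.6 in WT. Gzma, a granzyme of cytotoxic cells, had ratios of 0.66, 0.60 and 0.73, next to 0.63, 0.73 and 0.88 outside the rule. Its ΔTE wells were uneven, at 1122, 1882 and 1084 CPM for DN2a and at 1358, 880 and 773 for DN2b. The WT wells were at 787 to 835 CPM for DN2a and 530 to 713 for DN2b. The Gzma ratio without the highest well was not computed. Gata3 had ratios of 0.70, 0.50 and 0.30, next to 0.68, 0.51 and 0.49 outside the rule. Id2 went from a ratio of 0.35 (-0.21 to 0.92) for DN1 to 0.80 for DN2a and 1.56 (1.14 to 1.99) for DN2b. Outside the rule it was at 0.56, 0.75 and 1.76. Cd3g was lower in ΔTE for DN1 (-1.53) and DN2a (-1.41) and near WT for DN2b (-0.25, -0.49 to -0.01). The RUNX factors Runx1 (-0.35, -0.42 and -0.40) and Runx2 (-0.33, -0.49 and -0.06), and the T-cell factor Tcf7 (0.08, -0.16 and -0.12), stayed within 1.5-fold. For DN2a the median ratio over all genes was -0.17, close to the Tcf7 value. The single-gene DN2a ratios were not shifted for this median. Outside the rule Runx1 was at -0.24, -0.37 and -0.58, and Runx2 at -0.43, -0.52 and -0.42. The study reports both RUNX genes as reduced in ΔTE cells of its multipotent clusters, at a smaller fold cut than the one used here. Rora, a factor of ILCs, was past it for DN2b alone (-0.09, 0.11 and 0.83). Outside the rule Rora was at -0.23, 0.18 and 0.34.

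The cell-cycle lists themselves differed little between the genotypes within mitotic cells. The other G2/M genes had ratios of 0.04, -0.15 and -0.06 for DN1, DN2a and DN2b, and the S phase genes -0.03, -0.24 and -0.12, while the median over all genes was 0.01, -0.17 and -0.02. The ILC and NK markers summed to ratios of 0.53 (0.44 to 0.62), 0.59 (0.52 to 0.65) and 0.96 (0.86 to 1.06). Of the ILC and NK markers with enough UMIs, 2 of 8 were past 1.5-fold higher for DN1, 5 of 10 for DN2a and 8 of 10 for DN2b, and none was past it lower. T-lineage markers were at -0.05, -0.22 and 0.08, with members past 1.5-fold both ways, 1 higher and 1 lower of 8 for DN1, 3 higher and 4 lower of 13 for DN2a, and 2 higher and none lower of 9 for DN2b. Stroma markers in mitotic cells were lower in ΔTE at all 3 starts (-0.40, -0.998 and -1.08), and their part in these ratios was not tested beyond the values without stroma-marker cells, where Bcl11b, Themis and Fcer1g were past 1.5-fold in all 3 starts and Gzma was not.

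**Figure D5:**
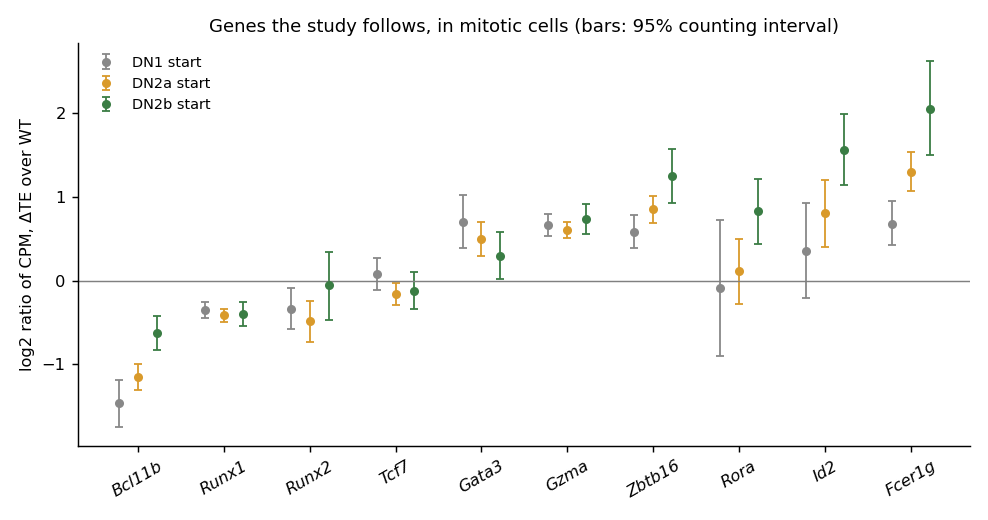
Log2 ratio of ΔTE to WT within mitotic cells for the genes that the study follows, by start, with 95% exact conditional intervals that cover counting error only. Bcl11b lies below 0 at all 3 starts (-1.47, -1.15 and -0.63), while Zbtb16, Fcer1g and Gzma lie above 0.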

How the data were processed

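The authors deposited counts of UMIs for each gene and barcode of 6 sci-RNA-seq3 libraries (28048 genes), before any filter on cells and without normalization. The submitters' processing notes name mm9 and the aligner is not given in the sources used here. Cells were filtered by the limits in the study's methods, which left fewer cells here than the study gives, so its set of cells is not the same. No doublet caller was used. The limit of 2000 UMIs, and the alternative without the 6% of cells with the most UMIs, cut deep cells and do not identify doublets. That alternative also removed mitotic cells, from 1704 to 1355 in WT DN1. Members and lists were chosen with earlier results of these data known.

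Shares were computed after random thinning to 300 UMIs (seed 0). Intervals are 95% exact Clopper-Pearson intervals for shares and exact conditional Poisson intervals for ratios (SciPy 1.17.1), and cover counting error only. CPM are UMIs scaled to a common total over a group's cells. Mitotic cells were paired with other cells of the same library, well and bin of 50 UMIs outside the 8 rule genes. Sums were fitted with edgeR 4.0.16 (R 4.3.3, TMM, quasi-likelihood, library as a block, genes with at least 60 UMIs over all sums, adjusted p below 0.05), with the 8 genes left out. Both sums of a library share its culture, and the block rests on this pairing, not on labels, since each condition has replicate 1 only. The p-values measure the spread between these libraries. On simulated counts of the same 10381 genes, 69% of genes changed 1.5-fold and 95% of those changed 2-fold were recovered, and 0.0688% of unchanged genes were called. The simulated sums held no difference in stromal cells, so these rates do not cover calls that stem from such a difference. For ratios of ΔTE to WT within mitotic cells, genes needed at least 50 UMIs over both libraries.

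Named genes were the 8 rule genes, the genes the study follows, for each role of a list up to 6 genes with the highest or lowest fold change past the threshold, and the 15 highest and 10 lowest fold changes outside the lists that went the same way in all 6 libraries (for Pxdn and Rab34 the sign in 1 library came from scaling of equal counts). Genes named as not passing, and those lowest without stroma-marker cells, were chosen after their values were seen. Some genes that the rule names are not reported here. Of 338 list entries 25 matched by an older symbol. Alternatives changed the thinning, the filters, the rule, the comparison cells, the tool (DESeq2 1.42.0), the normalization and the libraries.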

Additional observations from a re-analysis of the deposited data

Results flagged for a closer look

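The log2 ratio of the share of mitotic cells, ΔTE to WT at 300 UMIs, was above 0 in the DN1 cultures (0.12) and below 0 in the DN2a cultures (-0.57) and the DN2b cultures (-0.27), so DN1 went the other way from both DN2 starts. The difference between the starts was not tested, because each condition has 1 library, and the interval of the DN1 value (-0.08 to 0.32) includes 0. Without thinning the values were 0.22, -0.03 and -0.19.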

How the results depend on the processing

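Depth, mitochondrial limit and rule moved the genotype ratio of the mitotic share, and the cause was not tested. For DN2a (-0.57) the log2 ratio was -0.32 thinned to 500 UMIs, -0.025 without thinning, -0.26 in cells with 500 to under 800 UMIs, -0.40 with at least 2 UMIs, -0.89 without Mki67 and Top2a in the rule, -0.75 without a mitochondrial limit, -0.83 with at most 20% mitochondrial UMIs, -0.79 without well 1 and -0.32 at 250 UMIs outside mitochondrial genes, the last chosen after seeing the data. For DN2b (-0.27) it was -0.014 in cells with 500 to under 800 UMIs and 0.090 with at most 20% mitochondrial UMIs. It was -0.089 thinned to 500 UMIs, -0.10 with at least 2 UMIs and -0.069 at 250 UMIs outside mitochondrial genes. Among the alternatives, the DN2b interval stayed below 0 only with no thinning, with no mitochondrial limit, without stroma-marker cells and without well 2. Under every other alternative it included 0. The DN1 ratio moved by less than its interval under all 17 settings. Genes higher (532) and lower (842) numbered 181 and 466 with DESeq2, 206 and 361 with at least 5 UMIs, 125 and 243 without Mki67 and Top2a, 288 and 186 without stroma-marker cells, and 2256 and 2247 without a mitochondrial limit. Without the 6% deepest cells 499 were lower. With no replicate block, that is without the pairing of both sums of a library, 133 were higher and 232 lower, and of the S phase genes 1 was higher and 9 lower. Leaving out 1 library gave 290 to 487 genes higher and 408 to 898 lower, with 290 and 408 without WT DN2a and 334 higher without ΔTE DN2a, and 3 to 7 S phase genes higher, with 3 without WT DN2a. S phase genes higher (6) numbered 3 with DESeq2, 10 against cells with no UMI of the 8 genes, 2 with at least 5 UMIs, 2 without Mki67 and Top2a, 3 without stroma-marker cells and 22 without a mitochondrial limit, and S phase genes lower (21) numbered 9, 33 and 8 with at least 5 UMIs, without stroma-marker cells and without a mitochondrial limit. The other G2/M genes higher (85) ranged from 57 to 96. Lineage genes past 1.5-fold in all 3 starts (4) were 2 with at least 5 UMIs. Single genes turned to -0.0076 for Ccnd3 with at least 5 UMIs, to -0.088 for Rrm1, -0.10 for Usp1 and -0.0044 for Fbxo5 without Mki67 and Top2a, to -0.0072 for Ezh2 without stroma-marker cells, and to 0.14 for Zbtb16 and 0.11 for Atad2 without a mitochondrial limit.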

Other observations

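Barcodes left out of the analysis also met the rule. With over 30% mitochondrial UMIs and at most 2000 UMIs, the share of mitotic cells at 300 UMIs was 2.88, 4.67 and 6.46% in WT DN1, DN2a and DN2b, and 2.51, 4.30 and 5.18% in ΔTE, below the filtered cells of each library. WT DN2a had 518 such barcodes and the other libraries 3440 to 5949.

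Mid1, a microtubule-associated ubiquitin ligase, had the lowest ratio of ΔTE to WT in mitotic cells among genes past 1.5-fold in all 3 starts (-3.81, -3.03 and -3.02 for DN1, DN2a and DN2b). Its level differed between WT wells of 1 library, at 282 to 1994 CPM in WT DN1 and 169 to 770 CPM in WT DN2b, while the ΔTE wells lay at 43.0 to 75.3 CPM. Of the other genes past 1.5-fold in all 3 starts, the chromatin protein gene Hmga2 (0.76, 1.97 and 1.43) and the integrin gene Itgae (1.12, 1.57 and 0.83) were higher in ΔTE, and Olfm5 was lower (-1.33, -2.05 and -2.52). These genes were chosen after their values were seen.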
